A study of Sus scrofa with 15 samples.

Results

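Testis RNA of piglets fed a formula that contained soy isoflavones was compared with testis RNA of piglets fed plain cow's milk formula. The isoflavone libraries were the 3 of the soy-based formula (Soy) and the 3 of the milk formula with added genistein (M + G), pooled with equal weight for each group, and the control libraries were the 3 of the unsupplemented milk formula (Milk). All genes that passed a filter on low counts were included, 15634 of 30476, in 9 of the 15 libraries of the series. The animals were male Dutch Landrace Duroc piglets, which suckled until postnatal day 2 and were fed 1 of the diets from then to postnatal day 21, when RNA was taken from the testes. Pure genistein was added to the M + G formula at 84 mg/L, a level that the methods of the study give for the diet and the labels for serum. M + G and Milk shared the same commercial milk formula, whereas Soy was another product with another protein source, so that Soy differed from Milk by more than its isoflavones. The series also holds piglets on sow milk (Sow) and on milk formula with 17β-estradiol (M + E2), which entered the fit but not the comparison. Each library is a sample of its own, from piglets of many litters born on the same day, so p-values measure the spread between these piglets. The comparison asks which testis genes differ from plain formula when isoflavones are fed, either within a soy product or as pure genistein.

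Genistein and daidzein, the main isoflavones of soy, are plant phenols that can bind estrogen receptors, with a preference for the beta form. They are absorbed, conjugated with glucuronic acid or sulfate and exported by efflux transporters. In the neonatal testis, Leydig cells make androgens from cholesterol, Sertoli cells divide and secrete anti-Müllerian hormone and inhibin, and germ cells are spermatogonia and their precursors, while peritubular myoid cells, vessels and macrophages fill the space around the cords.

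Gene counts summed to 7385856 to 9488579 reads in each of the 9 libraries. Markers of the tissue were present in each library, with summed levels of the Leydig cell markers of 18448 to 35721 CPM in Milk, 23182 to 33320 CPM in Soy and 24275 to 26578 CPM in M + G, where CPM is the count scaled to library size with TMM factors. Correlations within and between diets covered the same range. Pearson's r across genes on log2 CPM was 0.932 to 0.962 between Milk libraries and 0.938 to 0.982 between isoflavone and Milk libraries. The first principal component held 34.5% of the variance and placed Milk 2 at −60.9 and Milk 3 at 40.2, with the 6 isoflavone libraries between −23.1 and 30.5. Milk 2, Soy 3 and M + G 2 stood apart by a high summed level of collagen genes (38868, 44763 and 37229.6 CPM against 10752 to 19389 CPM in the other libraries), and Milk 2 by the lowest Leydig cell markers. In column names, 1 Soy library carries no number and is called Soy unnumbered.

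No gene was called different between the isoflavone formulas and Milk. In edgeR's quasi-likelihood F test, 0 of 15634 genes (0%) passed an adjusted p (Benjamini-Hochberg) of 0.05 together with a 2-fold change, and the lowest adjusted p was 0.955. An unadjusted p below 0.05 was found for 349 genes (2.23%), 174 of them higher (1.11%) and 175 lower (1.12%) in the isoflavone libraries. That share is below the 0.05 expected where no gene differs. Estimates of any size were higher for 7823 genes and lower for 7811. DESeq2's Wald test called 2 genes, KRT14 and ENSSSCG00000018062, at an adjusted p of 0.0336 each, and edgeR's exact test called 0. The median absolute log2 fold change was 0.16, and the 95% interval of the median gene reached 0.50 to either side of its estimate. For 11920 genes (76.2%) the whole interval lay between a 2-fold decrease and a 2-fold increase, whereas 95 genes were at least 2-fold higher and 67 at least 2-fold lower by their estimate, at any p. Among the widest estimates, named after their values were seen, was that of COMP, a cartilage matrix protein, at 5.19 (SE 2.21), with a mean of 6.755 ± 10.999 CPM (SD, n = 3) in Soy and 0.0413 ± 0.0716 CPM (SD, n = 3) in Milk, so that its SD in Soy exceeded its mean.

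**Figure D1:**
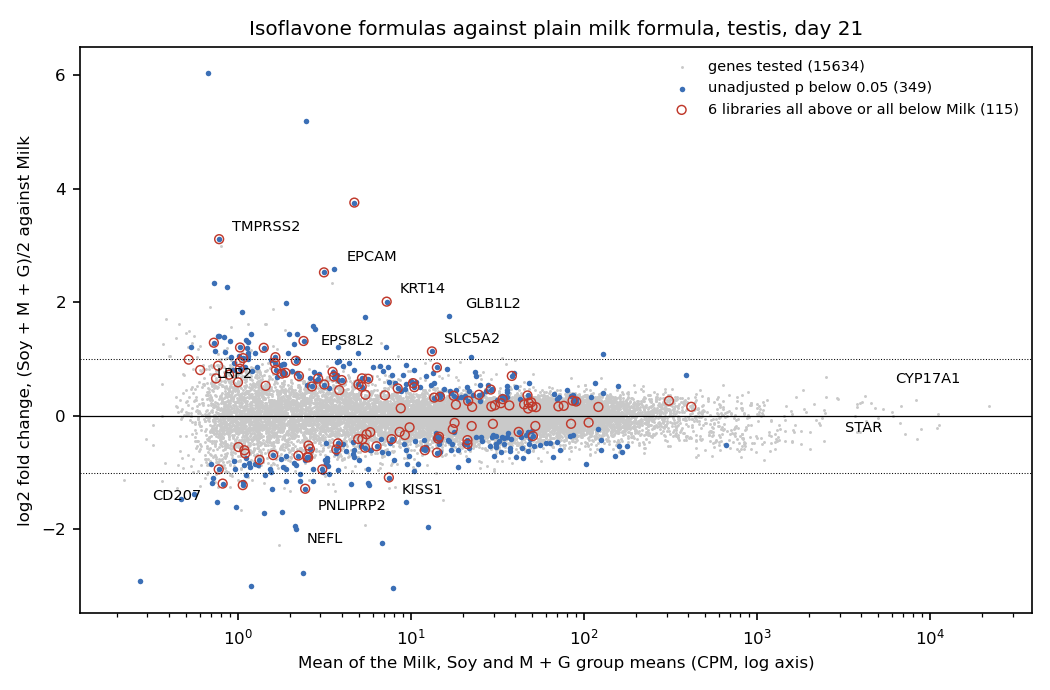
The plot shows each of the 15634 genes by its mean level (CPM, log axis) and by its log2 fold change in the isoflavone formulas against Milk, with dotted lines at 2-fold. Blue points are the 349 genes with an unadjusted p below 0.05 and red circles the 115 genes whose 6 isoflavone libraries all lay above or all below the 3 Milk libraries, and most of the genes beyond the dotted lines lie at low mean levels.

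The number of genes with an unadjusted p below 0.05 depended on single libraries. It was 3466 without Milk 3, 1227 without Soy unnumbered, 619 without M + G 2, 212 without Soy 2 and 175 without Milk 2, with 0 calls in each of these fits.

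For 72 genes (0.461%) all 6 isoflavone libraries lay above all 3 Milk libraries, and for 43 genes (0.275%) all lay below. Together these were 115 genes (0.736%), with a median log2 fold change of 0.54 among the higher and −0.50 among the lower genes, and 68 of them had an unadjusted p below 0.05 (0.435% of all genes). Such an order also arises at random among 9 libraries, and the share expected in that way was not computed. None of the 115 genes was called. At least 2-fold changes were found for 11 of the higher (0.0704%) and 4 of the lower genes (0.0256%), of which 5 (0.032%) and 3 (0.0192%) carry a gene symbol. The 5 and the 3 are described first, with positions on the pig assembly Sscrofa11.1 where the RefSeq gene table gives one.

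KRT14, a keratin of basal epithelial cells, was at 2.14, 2.23 and 1.88 CPM in Milk 1 to 3, at 6.01, 3.27 and 5.10 CPM in Soy unnumbered, 2 and 3, and at 7.07, 27.0 and 10.5 CPM in M + G 1 to 3. M + G 2 was the highest and the Milk libraries lay close together below all others. The log2 fold change of KRT14 was 2.01 (SE 0.43, 95% interval 1.08 to 2.95), with an adjusted p of 0.955 in edgeR's test, and it was 1.63 without M + G 2.

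SLC5A2 (chr3:17081138-17089422) encodes the sodium-glucose cotransporter SGLT2. Its level was 6.87, 5.70 and 9.40 CPM in the Milk libraries, 10.9, 16.3 and 16.7 CPM in Soy and 15.2, 10.5 and 27.5 CPM in M + G. The Soy unnumbered and M + G 2 libraries were only just above Milk 3, and M + G 3 was the highest. The log2 fold change was 1.13 (SE 0.31, 95% interval 0.47 to 1.79), and the 2 formulas had similar estimates, 1.00 in Soy and 1.27 in M + G. EPS8L2 (chr2:435257-452630), an actin-regulating adaptor of the EPS8 family, was at 1.37, 0.620 and 1.504 CPM in Milk, 1.64, 2.94 and 2.02 CPM in Soy and 3.14, 4.37 and 3.94 CPM in M + G, with a log2 fold change of 1.32 (SE 0.37, 95% interval 0.52 to 2.11). Here each M + G library was above each Soy library.

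TMPRSS2 (chr13:204874759-204905411), a membrane serine protease of epithelia, was near the limit of detection in Milk. It had 60 reads in the 6 isoflavone libraries and 2 in the 3 Milk libraries, a ratio of 13.4 per mapped read with a 95% interval of 3.56 to 113 that covers counting error only. The levels were 0.683, 0.226 and 0.356 CPM in Soy and 0.393, 3.41 and 1.69 CPM in M + G, against 0, 0.124 and 0.125 CPM in Milk, so that M + G 2 and M + G 3 held most of the reads. TMPRSS2 passed the filter through these libraries and did not pass it without either of them, so its size was set in part by the group that let it through. LRP2 (chr15:75565299-75754604) encodes megalin, an endocytic receptor of absorptive epithelia that takes up carrier-bound vitamins and hormones. It was at 0.458, 1.12 and 1.25 CPM in Milk, 2.19, 1.81 and 1.42 CPM in Soy and 2.75, 2.03 and 1.80 CPM in M + G, with a log2 fold change of 1.03 (SE 0.34, 95% interval 0.31 to 1.75). The gap between Milk 3 and Soy 3 was narrow.

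**Figure D2:**
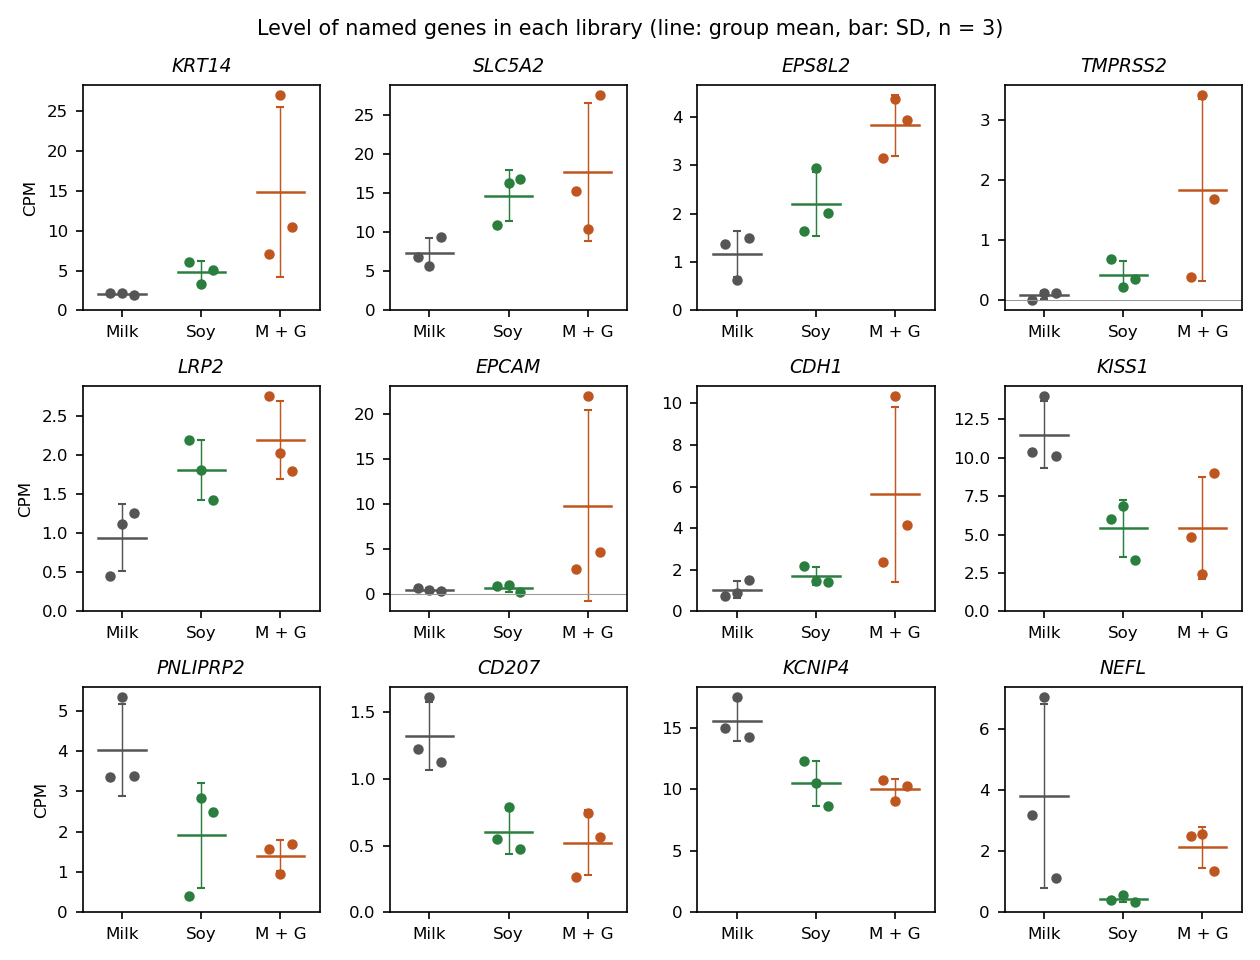
The panels give the level of 12 named genes in each library (CPM, linear axis) for Milk, Soy and M + G, with the group mean as a line and the SD of 3 libraries as a bar. KRT14, SLC5A2, EPS8L2, TMPRSS2 and LRP2 lie above Milk in all 6 isoflavone libraries, KISS1, PNLIPRP2, CD207 and KCNIP4 below it, while EPCAM and CDH1 are highest in M + G 2 and NEFL is lowest in Soy.

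Among genes below Milk in all 6 isoflavone libraries was KISS1 (chr9:64834822-64841071), which encodes the precursor of kisspeptin, a peptide known for its control of gonadotropin-releasing hormone and also made in gonads. Its level was 10.4, 14.01 and 10.2 CPM in Milk, 6.01, 6.89 and 3.32 CPM in Soy and 4.84, 2.45 and 9.002 CPM in M + G. The highest isoflavone library, M + G 3, was close to the lowest Milk library. The log2 fold change was −1.09 (SE 0.33, 95% interval −1.80 to −0.37) and the estimates of both formulas were nearly equal at −1.09 in Soy and −1.08 in M + G. Over the alternatives it ranged from −1.38 to −0.91.

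PNLIPRP2 (chr14:126817647-126839273), a lipase related to pancreatic lipase, was at 3.36, 5.33 and 3.38 CPM in Milk, 0.410, 2.82 and 2.49 CPM in Soy and 1.57, 0.960 and 1.69 CPM in M + G, a log2 fold change of −1.28 (SE 0.43, 95% interval −2.22 to −0.35). CD207 (chr3:71668233-71674871), the lectin langerin of Langerhans-type dendritic cells, was at 1.22, 1.61 and 1.13 CPM in Milk, 0.547, 0.790 and 0.474 CPM in Soy and 0.262, 0.746 and 0.563 CPM in M + G, a log2 fold change of −1.19 (SE 0.48, 95% interval −2.22 to −0.17). Both are genes of few reads, and without Milk 2 CD207 did not pass the filter. The highest isoflavone library was Soy 2 in each, at a distance below 1 CPM from the lowest Milk library.

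A smaller but tighter difference was found for KCNIP4 (chr8:15211916-16346358), a calcium-binding protein that associates with potassium channels. Its level was 15.0, 17.5 and 14.3 CPM in Milk, 12.3, 10.5 and 8.66 CPM in Soy and 10.7, 9.06 and 10.2 CPM in M + G, with a log2 fold change of −0.61 (SE 0.15, 95% interval −0.94 to −0.27). The highest isoflavone library was below the lowest Milk library, and the adjusted p was 0.955 in edgeR's test, as for most of the named genes.

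Further genes without overlap are named here after their values were seen. CD247, the zeta chain of the T cell receptor complex, was at 25.5 to 28.9 CPM in Milk and 32.6 to 60.9 CPM in the isoflavone libraries, with a log2 fold change of 0.70 (SE 0.22). Of the list of T or NK cell markers, which does not hold CD247, 9 of 11 had estimates below Milk, beside 7811 of 15634 over all genes. ACSL1, which activates long-chain fatty acids, was at 19.96 to 26.4 CPM in Milk and 27.6 to 38.6 CPM in the isoflavone libraries, and the adhesion molecule FLRT3 at 7.14 to 8.55 CPM and 9.57 to 13.8 CPM. VDR, the vitamin D receptor, was at 0.868 to 1.13 CPM in Milk against 1.23 to 3.27 CPM. CEBPA, a transcription factor of Leydig cells, fat and liver, was below Milk, with 15.6 to 20.9 CPM against 22.1 to 29.6 CPM and a log2 fold change of −0.50 (SE 0.17). CDKN1C, an imprinted inhibitor of cyclin-dependent kinases, was also below, at 9.26 to 13.9 CPM against 16.5 to 17.9 CPM, as was TK1, the thymidine kinase of dividing cells, at 36.5 to 42.3 CPM against 44.1 to 53.9 CPM.

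The 2 formulas were then set side by side. Both comparisons use the same 3 Milk libraries, so a shared direction is no independent repeat. Against Milk, 0 genes (0%) were called in Soy and 0 genes (0%) in M + G by the quasi-likelihood test, with 381 (2.44%) and 406 (2.6%) genes at an unadjusted p below 0.05. These were 213 higher (1.36%) and 168 lower (1.07%) in Soy, and 216 higher (1.38%) and 190 lower (1.22%) in M + G. DESeq2's Wald test called 6 and 2 genes, and the exact test 5 and 2. With Milk and M + G paired by replicate number, a pairing added after seeing the data, 1 gene was called in Soy, ENSSSCG00000018062. Of the 349 genes with an unadjusted p below 0.05 for the formulas together, 45 were below 0.05 in both formulas, 127 in Soy alone, 130 in M + G alone and 47 in neither. The 3 Soy libraries did not overlap with Milk for 734 genes (4.69%) and the 3 M + G libraries for 740 (4.73%), and for 19 genes (0.122%) Soy and M + G lay on opposite sides of Milk without overlap. The shares expected at random were not computed here either.

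**Figure D3:**
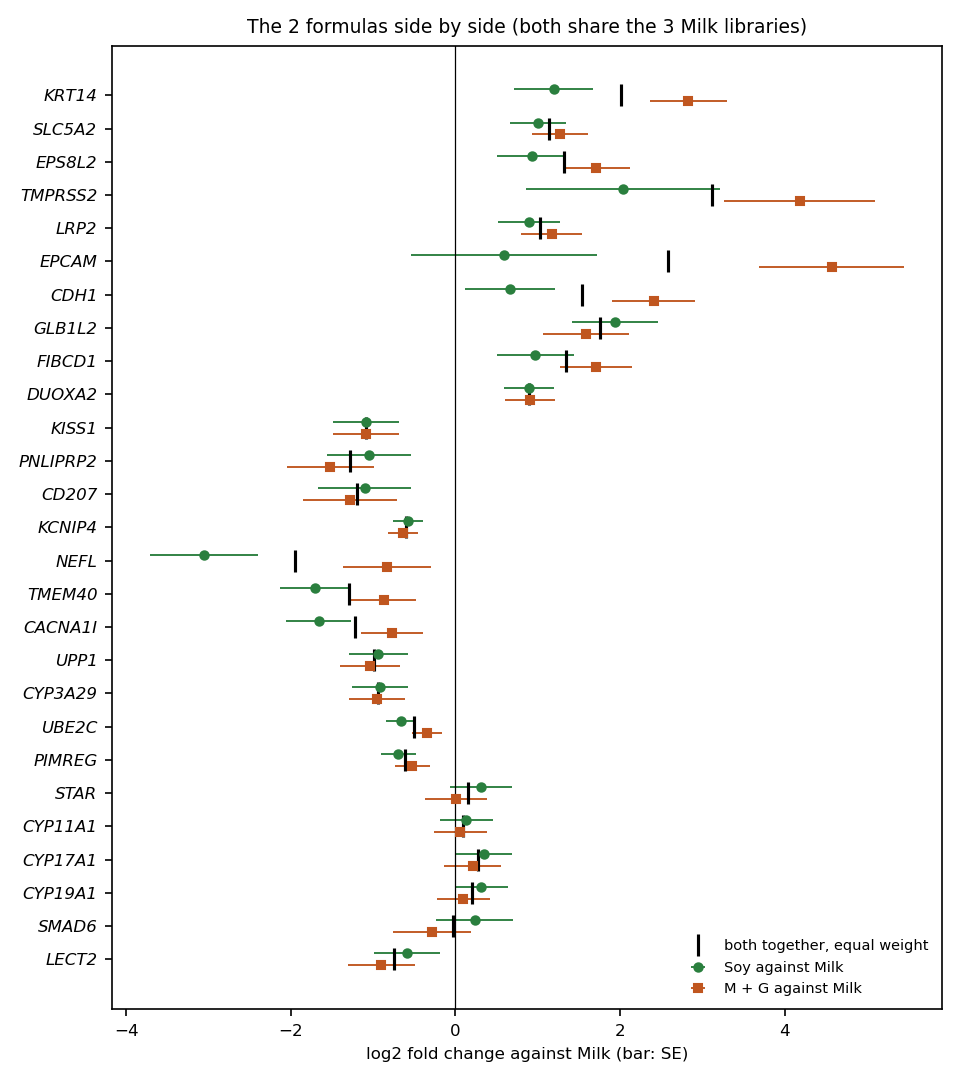
For 27 named genes the plot gives the log2 fold change against Milk of Soy (circles) and of M + G (squares), with the SE as bars, and of both formulas together (vertical marks). DUOXA2, KISS1, KCNIP4 and CYP3A29 have nearly equal estimates in the 2 formulas, while KRT14, TMPRSS2, EPCAM and CDH1 are further from 0 in M + G and NEFL in Soy.

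Genes with similar estimates in both formulas covered several functions. DUOXA2, a maturation factor of the NADPH oxidase DUOX2, was at 4.89, 4.46 and 8.52 CPM in Milk, 10.5, 14.8 and 7.95 CPM in Soy and 11.7, 13.0 and 8.89 CPM in M + G, with log2 fold changes of 0.89 in Soy and 0.90 in M + G. One Soy library was within the range of Milk. CYP3A29, a porcine cytochrome P450 of drug and steroid oxidation, was at 5.34, 4.46 and 2.13 CPM, 2.46, 2.03 and 1.78 CPM and 1.83, 2.24 and 2.03 CPM, with −0.92 in Soy and −0.95 in M + G. Milk 3 was within the isoflavone range, and reads of related CYP3A genes can be shared. UPP1, which breaks down uridine, had −0.94 in Soy and −1.04 in M + G, and PIMREG, a gene of mitosis, −0.69 in Soy and −0.52 in M + G. Estimates were further apart for FIBCD1, a receptor for acetylated sugars such as chitin, at 0.97 in Soy and 1.71 in M + G, for the T-type calcium channel gene CACNA1I at −1.66 in Soy and −0.77 in M + G, and for TMEM40 at −1.71 in Soy and −0.87 in M + G. Without Milk 2 the values of both formulas together were closer to 0 for UPP1 (−0.59 in place of −0.99), PIMREG (−0.35 in place of −0.61) and CACNA1I (−0.74 in place of −1.22).

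Some leading genes stood apart from Milk in 1 formula. ENSSSCG00000018062, named in the supplement of the study as the mitochondrial valine tRNA gene MT-TV, had a log2 fold change of 1.74 (SE 0.37, 95% interval 0.93 to 2.54) and the lowest p of all genes. Without Milk 1 it was 2.54, with an adjusted p of 0.0558 in edgeR's test. Its level was 11.8, 12.2 and 12.3 CPM in Soy, 2.62, 2.67 and 2.25 CPM in M + G and 3.21, 0.744 and 1.13 CPM in Milk, so that M + G lay within the range of Milk. NEFL, the light chain of neurofilaments, was at 0.410, 0.565 and 0.356 CPM in Soy, 2.49, 2.56 and 1.35 CPM in M + G and 3.21, 7.07 and 1.13 CPM in Milk. Its log2 fold changes were −3.05 in Soy and −0.84 in M + G, and that of the formulas together was −1.94 (SE 0.49), or −1.11 without Milk 2.

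The difference between the formulas themselves does not set them against Milk, although the Milk libraries share in the spread and the filter of the fit. Between Soy and M + G, 0 genes (0%) were called by the quasi-likelihood test and 570 (3.65%) had an unadjusted p below 0.05, more than in either comparison with Milk, while DESeq2's Wald test called 12 genes and the exact test 8. The quasi-likelihood test called 2, 3 and 2 genes without Milk 1, Milk 2 and Milk 3. With the same added pairing of Milk and M + G, 1 gene was called, ENSSSCG00000018071. This gene, singled out after its values were seen, had the lowest adjusted p (0.0592) without the pairing. The level of ENSSSCG00000018071 was 17.6, 9.94 and 9.61 CPM in Soy against 2.62, 1.71 and 1.35 CPM in M + G, with a log2 difference of 2.71 (SE 0.37). It was at 14.2 to 18.5 CPM in Sow and 1.39 to 1.90 CPM in M + E2. For MT-TV the log2 difference was 2.26 (SE 0.38), with an adjusted p of 0.207. Of the 349 genes, 35 differed between Soy and M + G at an unadjusted p below 0.05. For KISS1 the 95% interval of the difference was −0.89 to 0.87, so differences of up to nearly 2-fold in either direction lay within it.

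Several markers of epididymal or rete epithelium, the ducts that drain the testis, had values above Milk. Of 18 listed genes 15 passed the filter, but EPCAM and PAX2 passed it through the M + G libraries, where they were high. Of the other 13, 12 had estimates above Milk (50% of all genes) and 5 an unadjusted p below 0.05 in the higher direction (1.11% of all genes). Any marker that passed the filter through Soy is still counted. The list was written with earlier results of these data known and holds EPCAM, which the study named for these data. These shares are therefore no independent support. The median log2 fold change was 0.30 over the 13, beside 0.00 for all genes, and 0.22 over the 6 with at least 10 counts in every library. Of these 6, all had estimates above Milk and 1 had an unadjusted p below 0.05. Over all 15 the median was 0.55 (Soy 0.40, M + G 0.87), and in M + E2 against Milk it was 0.31. EPCAM, an epithelial adhesion molecule, was at 0.611, 0.372 and 0.251 CPM in Milk, 0.820, 0.903 and 0.119 CPM in Soy and 2.75, 22.1 and 4.61 CPM in M + G. Soy overlapped with Milk, M + G lay above both, and M + G 2 was far the highest. The log2 fold change of EPCAM was 2.58 (SE 0.91, 95% interval 0.62 to 4.54) for the formulas together, 1.87 without M + G 2 and 3.66 with the 6 libraries as 1 group. It was −3.98 (SE 0.82) for Soy against M + G. CDH1, the E-cadherin of epithelial junctions, was at 0.764, 0.868 and 1.504 CPM in Milk, 2.19, 1.47 and 1.42 CPM in Soy and 2.36, 10.3 and 4.16 CPM in M + G. The tight junction gene CLDN3 was the 1 marker without overlap, at 3.05 to 4.39 CPM in Milk and 4.65 to 8.78 CPM in the isoflavone libraries, a log2 fold change of 0.66 (SE 0.25). KRT7, CLDN7 and GRHL2 had log2 fold changes of 1.99, 1.44 and 1.19.

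In 5 of the 13 epithelial markers that passed the filter without M + G, M + G was above Soy at an unadjusted p below 0.05 (2.16% of all genes). Among the 6 with at least 10 counts in every library, this held for 1. PAX2, a transcription factor of the mesonephric ducts, had no reads in Milk 1, Milk 2, Soy unnumbered and Soy 2 and was at 0.655, 4.48 and 1.69 CPM in M + G. The summed level of the list was 202 to 260.1 CPM in Milk, 244 to 409 CPM in Soy and 179 to 486 CPM in M + G, with KRT8, a keratin that immature Sertoli cells can also express, at 83.8 to 313 CPM in the isoflavone libraries. M + G 2 was the highest library for EPCAM, CDH1, KRT7, CLDN7, KRT14 and TMPRSS2, and the median of the list was 0.28 without it and 0.23 in a fit of the genes with at least 10 counts in every library. The part of duct tissue in the values of KRT14, TMPRSS2 and EPCAM was not tested. In bulk tissue a change in the number of cells of a type and a change of RNA per cell cannot be told apart.

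A list of some of the genes that the study names for testis RNA was read in the same contrast. The list is partial. Among the genes it leaves out is ENSSSCG00000018062, described above, which the study also lists. Of the 9 tested genes of the list, 3 had an unadjusted p below 0.05 (2.23% of all genes), namely EPCAM, GLB1L2 and LECT2. The study named EPCAM and GLB1L2 for differences from milk formula in these same data, so this share is no independent support. EPCAM also passed the filter only through the M + G libraries. GLB1L2, a beta-galactosidase-like gene, was at 3.36, 5.83 and 9.65 CPM in Milk, 20.8, 33.0 and 18.9 CPM in Soy and 21.0, 8.53 and 27.6 CPM in M + G, with a log2 fold change of 1.76 (SE 0.48, 95% interval 0.73 to 2.79). The M + G 2 library lay within the range of Milk and the other 5 above it. LECT2, a chemotactic factor of leukocytes, was at 2.14, 0.992 and 1.504 CPM, 0.683, 1.02 and 1.30 CPM and 0.786, 0.960 and 0.675 CPM in the same order, a log2 fold change of −0.75 (SE 0.34, 95% interval −1.48 to −0.01). Milk 2 overlapped with the isoflavone libraries, and without Milk 1 the value was −0.46. GZMA_2, a granzyme gene of cytotoxic lymphocytes, had 1.07, 1.49 and 0.125 CPM in Milk, 1.09, 0 and 0.474 CPM in Soy and 0.524, 0.640 and 0.450 CPM in M + G, a log2 fold change of −0.76 (SE 0.75, 95% interval −2.37 to 0.85) that was −0.12 without Milk 2 and −1.29 without Milk 3. SMAD6, an inhibitor of BMP signalling, had a log2 fold change of −0.02 (SE 0.41, 95% interval −0.90 to 0.85), whose sign changed with several libraries, and 10.1 to 42.2 CPM within Soy alone.

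DEFB115, a beta-defensin of the male tract, did not pass the filter. It had 3, 30 and 7 reads in M + G 1 to 3 and 0 in each Milk and Soy library. Against a floor of 3 reads per Milk library M + G was at least 3.63-fold higher, or at least 1.47-fold without M + G 2. FOXL2, a transcription factor of the ovary, had 3 reads in 1 Soy library, 1 read in each of 2 Milk libraries and none in M + G.

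The main steroidogenic genes had estimates smaller than their SE. STAR, which carries cholesterol into mitochondria, was at 5484, 1783 and 3299 CPM in Milk, 4777, 4625 and 3677 CPM in Soy and 3745, 3643 and 3232 CPM in M + G. CYP11A1, the side-chain cleavage enzyme, was at 2984, 1145 and 2834 CPM in Milk and 2053 to 3079 CPM in the isoflavone libraries. CYP17A1, which makes the androgen precursors, was at 8183, 3579.8 and 10030.1 CPM and 7497 to 11309.7 CPM, and the aromatase CYP19A1 at 4703, 1796 and 3741 CPM and 2849 to 4691 CPM. In each of these genes Milk 2 was the lowest of the 9 libraries, the isoflavone libraries lay within the range of Milk for STAR and CYP19A1, and for CYP11A1 and CYP17A1 the highest of them was above the highest Milk library. Their log2 fold changes were 0.16 (SE 0.32), 0.10 (SE 0.28), 0.28 (SE 0.30) and 0.21 (SE 0.28), in the same order. Without Milk 2 all 4 turned negative, at −0.16, −0.23, −0.05 and −0.10.

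Of 17 steroidogenesis genes, 10 had higher and 7 lower estimates, 0 had an unadjusted p below 0.05, and the median was 0.10 (Soy 0.13, M + G 0.06). SRD5A1, a steroid 5-alpha reductase, had the lowest p of the list (log2 fold change 0.54, SE 0.34). The 9 Leydig cell markers had a median of 0.10 (Soy 0.13, M + G 0.04). LHCGR, the receptor for luteinizing hormone, was at 192, 78.2 and 172 CPM in Milk, 197, 254 and 279 CPM in Soy and 180.4, 132 and 141 CPM in M + G, so that each Soy library was above each M + G library and M + G lay within Milk. INSL3, the Leydig cell peptide of testis descent, had a log2 fold change of −0.11 (SE 0.27, 95% interval −0.69 to 0.47).

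Of the 13 Sertoli cell markers 12 had higher estimates (50% of all genes), with a median of 0.29 (Soy 0.09, M + G 0.38) and 0 at an unadjusted p below 0.05. In M + E2 against Milk the median was 0.63. AMH, the anti-Müllerian hormone, was at 509, 349 and 662 CPM in Milk, 557, 604 and 457 CPM in Soy and 712, 564 and 866 CPM in M + G, and WT1, a transcription factor of these cells, had a log2 fold change of 0.29 (SE 0.15). Milk 2 was the lowest library for AMH, and the median of the list was 0.03 without it. The 12 genes of FSH, inhibin and activin signalling had a median of 0.10 (Soy 0.01, M + G 0.21), with FSHR, the receptor for follicle-stimulating hormone, at 0.33 (SE 0.28, 95% interval −0.27 to 0.93) and INHA, the inhibin alpha subunit, at 0.04 (SE 0.25, 95% interval −0.51 to 0.58). Of 14 germ cell markers 10 were higher and 4 lower, with a median of 0.15 (Soy 0.17, M + G 0.09). The stem cell factor receptor KIT, which Leydig cells also express, had 78.2, 123.4 and 109 CPM in Milk, 119, 172 and 223 CPM in Soy and 86.3, 152 and 124 CPM in M + G (log2 fold change 0.47, SE 0.22), and DDX4, a germ cell RNA helicase, had a log2 fold change of 0.15 (SE 0.36).

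Genes of estrogen action showed small estimates. The 19 tested estrogen receptors and classical targets had a median of 0.06 (Soy −0.04, M + G 0.16), with 11 higher, 8 lower and 0 at an unadjusted p below 0.05. The median of this list was also small in M + E2 against Milk, at −0.12. ESR1, the estrogen receptor alpha, was at 11.8, 8.31 and 17.3 CPM in Milk, 13.7, 16.1 and 15.9 CPM in Soy and 16.4, 18.8 and 17.4 CPM in M + G. Milk 3 lay within the isoflavone range and the other Milk libraries below it, and the log2 fold change was 0.39 (SE 0.20, 95% interval −0.05 to 0.83). ESR2, the beta form, had 0.15 (SE 0.45, 95% interval −0.81 to 1.12) and the progesterone receptor PGR 0.02 (SE 0.34, 95% interval −0.71 to 0.75).

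The 7 tested genes of isoflavone conjugation and efflux had a median of 0.17 (Soy 0.34, M + G 0.08). GUSB, the lysosomal beta-glucuronidase that cleaves glucuronides, was the 1 gene of the list with an unadjusted p below 0.05 (2.23% of all genes). Its level was 319, 231 and 255 CPM in Milk, 237, 666 and 659 CPM in Soy and 392.2, 322 and 418 CPM in M + G, a log2 fold change of 0.72 (SE 0.29, 95% interval 0.10 to 1.35). Soy 2 and Soy 3 were high and Soy unnumbered lay within Milk. SULT1E1, the estrogen sulfotransferase, was high in Milk 2 and Soy 3 (1.07, 28.1 and 0.501 CPM in Milk, 2.60, 1.02 and 35.0 CPM in Soy and 1.70, 1.49 and 0.900 CPM in M + G), the 2 libraries of the highest collagen sums. Of 22 xenobiotic metabolism genes 16 had lower estimates (7811 of 15634 over all genes), with a median of −0.15 (Soy −0.03, M + G −0.13). CYP3A29 was the 1 gene of them with an unadjusted p below 0.05 (2.23% of all genes). The 18 NRF2 targets and antioxidant enzymes had a median of 0.08 (Soy 0.11, M + G −0.01), and GPX1, a glutathione peroxidase, was at 213, 245 and 140.3 CPM in Milk, 169.7, 142 and 126 CPM in Soy and 146, 157 and 87.2 CPM in M + G (log2 fold change −0.54, SE 0.20).

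Lists of metabolism had medians from −0.06 to 0.21. Medians were 0.21 (Soy 0.12, M + G 0.17) for 24 genes of sterol biosynthesis and uptake, −0.06 (Soy −0.02, M + G −0.06) for 21 genes of fatty acid oxidation and PPAR targets, 0.12 (Soy 0.21, M + G 0.11) for 20 genes of glycolysis and glucose sensing, and 0.06 (Soy −0.04, M + G 0.13) for 11 genes of the IGF axis. HK2, a hexokinase, was at 10.99, 7.69 and 19.3 CPM in Milk, 17.4, 46.9 and 35.5 CPM in Soy and 25.1, 12.5 and 24.1 CPM in M + G, with a log2 fold change of 1.04 (SE 0.35, 95% interval 0.28 to 1.80). Soy 2 and Soy 3 were the highest. Of the 9 thyroid hormone response genes, with a median of −0.02 (Soy 0.04, M + G −0.10), DIO2 had the lowest p. DIO2 activates thyroid hormone and was at 4.58, 66.3 and 3.51 CPM in Milk and 2.94 to 14.8 CPM in the isoflavone libraries, so that Milk 2 alone was above the isoflavone range.

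**Figure D4:**
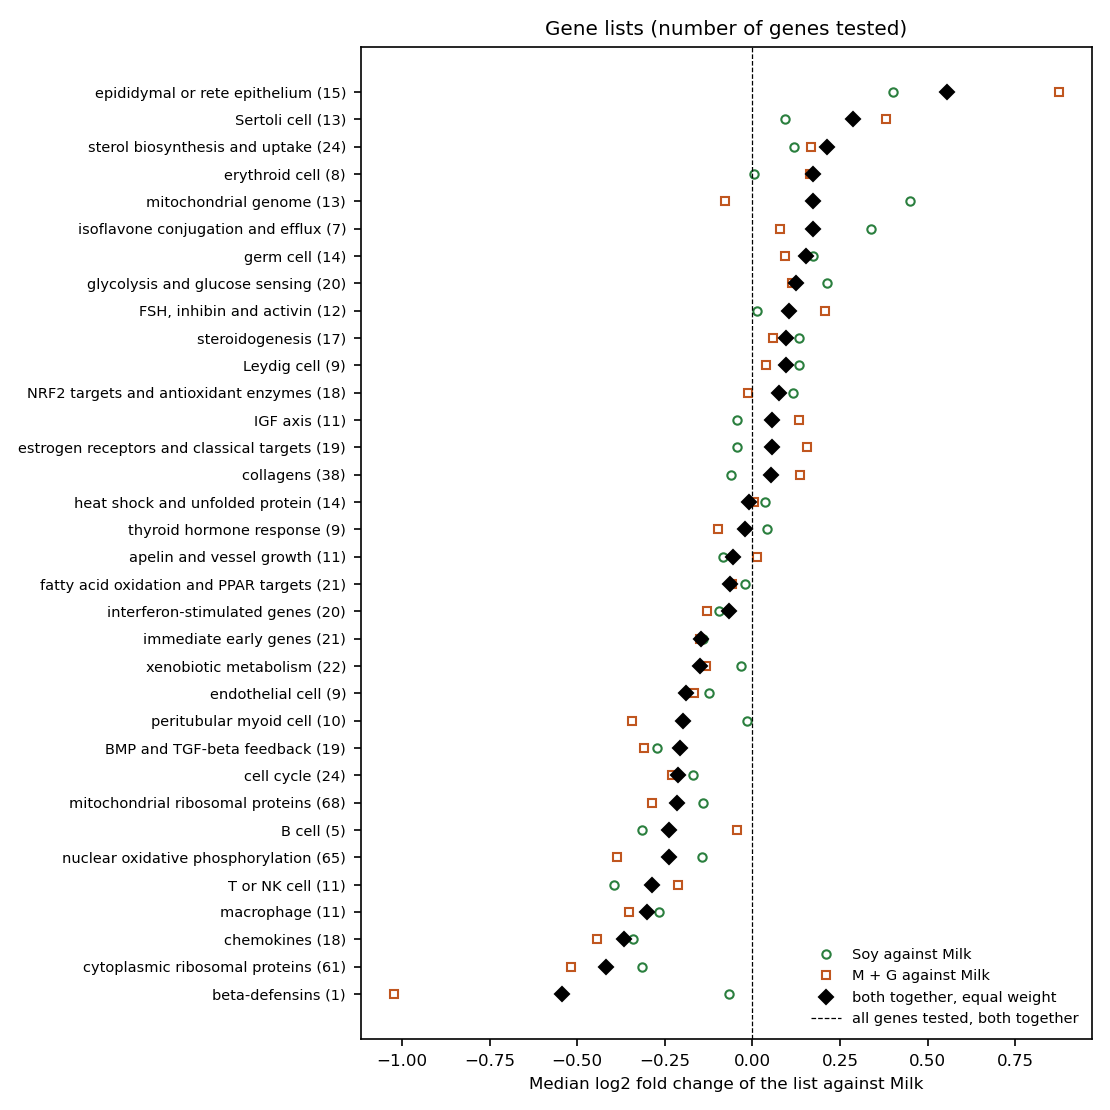
The median log2 fold change against Milk of each gene list is shown for Soy (circles), M + G (squares) and both together (diamonds), with the median of all genes tested as a dashed line and the number of genes tested in brackets. For both formulas together, the 15 epithelial markers are the furthest above 0. Without the epithelial markers that passed the filter only through M + G, their median is 0.30 over 13, beside 0.29 for Sertoli cell markers. It is 0.22 over the 6 with at least 10 counts in every library. Aside from the 1 tested beta-defensin, ribosomal proteins are the furthest below 0, while the mitochondrial genome separates the 2 formulas.

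Medians of the immune cell lists and of chemokines were below Milk. Medians were −0.30 (Soy −0.27, M + G −0.35) for 11 macrophage markers and −0.29 (Soy −0.39, M + G −0.21) for 11 T or NK cell markers. They were −0.24 (Soy −0.31, M + G −0.04) for 5 B cell markers and −0.37 (Soy −0.34, M + G −0.44) for 18 chemokines. Of these chemokines 15 had lower estimates, beside 7811 of 15634 over all genes. The chemokine median was −0.23 over the 17 that passed the filter without M + G. C1QA, a complement component of macrophages, was at 75.1, 154 and 38.7 CPM in Milk, 68.9, 44.3 and 55.5 CPM in Soy and 44.4, 67.8 and 43.4 CPM in M + G (log2 fold change −0.73, SE 0.33). CD79A, part of the B cell receptor, was at 246, 248 and 112 CPM, 173, 84.3 and 72.7 CPM and 127, 184 and 112 CPM in the same order (log2 fold change −0.70, SE 0.31). For CCL2, a chemokine for monocytes, the value was lower (log2 fold change −0.57, SE 0.25), and for CCL22, a chemokine of dendritic cells, higher (log2 fold change 1.00, SE 0.38). Milk 2 was the highest library for C1QA, CD79A and CCL2, and Milk 3 lay within the isoflavone range for CD79A and CCL2 and below it for C1QA. Without Milk 2 the medians were −0.05 for macrophages, 0.08 for T or NK cells and −0.05 for chemokines, and the B cell median was 0.11 without Milk 3. Interferon-stimulated genes had a median of −0.07 (Soy −0.10, M + G −0.13) over 20 genes, or 0.23 without Milk 2, and erythroid markers 0.17 (Soy 0.00, M + G 0.17) over 8.

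Peritubular myoid markers had a median of −0.20 (Soy −0.01, M + G −0.34) over 10 genes, endothelial markers −0.19 (Soy −0.12, M + G −0.17) over 9, which was 0.14 without Milk 2, and collagens 0.05 (Soy −0.06, M + G 0.14) over 38, with 0 genes of the 3 lists at an unadjusted p below 0.05. Their summed levels followed libraries rather than diets. The myoid sum was 4692 CPM in Milk 2, 5788 CPM in Soy 3 and 3770.2 CPM in M + G 2 against 861 to 1650.4 CPM in the other libraries. Its median turned from −0.96 without Soy 3 to 0.52 without Milk 2. In the 19 genes of BMP and TGF-beta feedback, 16 had lower estimates (7811 of 15634 over all genes). Their median was −0.21 (Soy −0.27, M + G −0.31), or 0.18 without Milk 2. ID1, a target of BMP signalling, was at 59.4, 91.0 and 32.7 CPM in Milk and 27.3 to 50.2 CPM in the isoflavone libraries (log2 fold change −0.75, SE 0.28). The 21 immediate early genes had a median of −0.15 (Soy −0.14, M + G −0.15), the 11 genes of apelin and vessel growth −0.06 (Soy −0.08, M + G 0.01) and the 14 genes of heat shock and the unfolded protein response −0.01 (Soy 0.04, M + G 0.00). Of 17 beta-defensins 1 passed the filter, with a log2 fold change of −0.54, and 7 had no reads in the 9 libraries.

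All 61 tested genes of cytoplasmic ribosomal proteins had estimates below Milk (7811 of 15634 over all genes), with a median of −0.42 (Soy −0.31, M + G −0.52). The range was −0.65 to −0.13, and 0 of them had an unadjusted p below 0.05. In M + E2 against Milk, without added isoflavone, the median was −0.56. RPS9, of the small subunit, had the lowest p of the list (log2 fold change −0.46, SE 0.25). The summed levels were 71004, 71471 and 30712 CPM in Milk 1 to 3, 73515, 35298 and 30637 CPM in Soy unnumbered, 2 and 3, and 36597, 51613 and 35173 CPM in M + G 1 to 3. Milk 1, Milk 2 and Soy unnumbered were high and Milk 3 was among the lowest, so the groups overlapped. Ribosomal protein genes have many near copies in the genome that can share reads. The median of the list was −0.24 without Milk 1, −0.24 without Milk 2 and −0.72 without Milk 3.

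Estimates below Milk also prevailed in other lists of protein synthesis, respiration and division, beside 7811 of 15634 over all genes. Of the 65 nuclear genes of oxidative phosphorylation 62 had lower estimates, with a median of −0.24 (Soy −0.14, M + G −0.39), and of the 68 mitochondrial ribosomal proteins 61, with a median of −0.22 (Soy −0.14, M + G −0.29). Without Milk 1 these medians were −0.03 and −0.04, and in M + E2 against Milk they were −0.79 and −0.59. Of 24 cell cycle genes 20 had lower estimates, with a median of −0.21 (Soy −0.17, M + G −0.23) that was −0.03 without Milk 2. UBE2C (log2 fold change −0.50, SE 0.15) and BIRC5 (log2 fold change −0.63, SE 0.28) were lower at an unadjusted p below 0.05 (1.12% of all genes). UBE2C, which marks mitotic proteins for degradation, was at 35.0, 48.2 and 31.7 CPM in Milk, 25.1, 23.9 and 23.6 CPM in Soy and 32.9, 27.0 and 30.8 CPM in M + G, and 1 M + G library was within Milk. Its value was −0.30 without Milk 2. The 13 protein-coding genes of the mitochondrial genome went the other way, with 12 higher and a median of 0.17 (Soy 0.45, M + G −0.08), which was −0.03 without Milk 2. In M + E2 against Milk their median was −0.61. Soy was above M + G at an unadjusted p below 0.05 in 4 of them (1.48% of all genes), among them ND1, a subunit of complex I, with 0.72 in Soy and −0.03 in M + G. The summed level of these genes was 45603 to 87325 CPM in Milk, 67027 to 98293 CPM in Soy and 51071 to 77581 CPM in M + G.

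**Figure D5:**
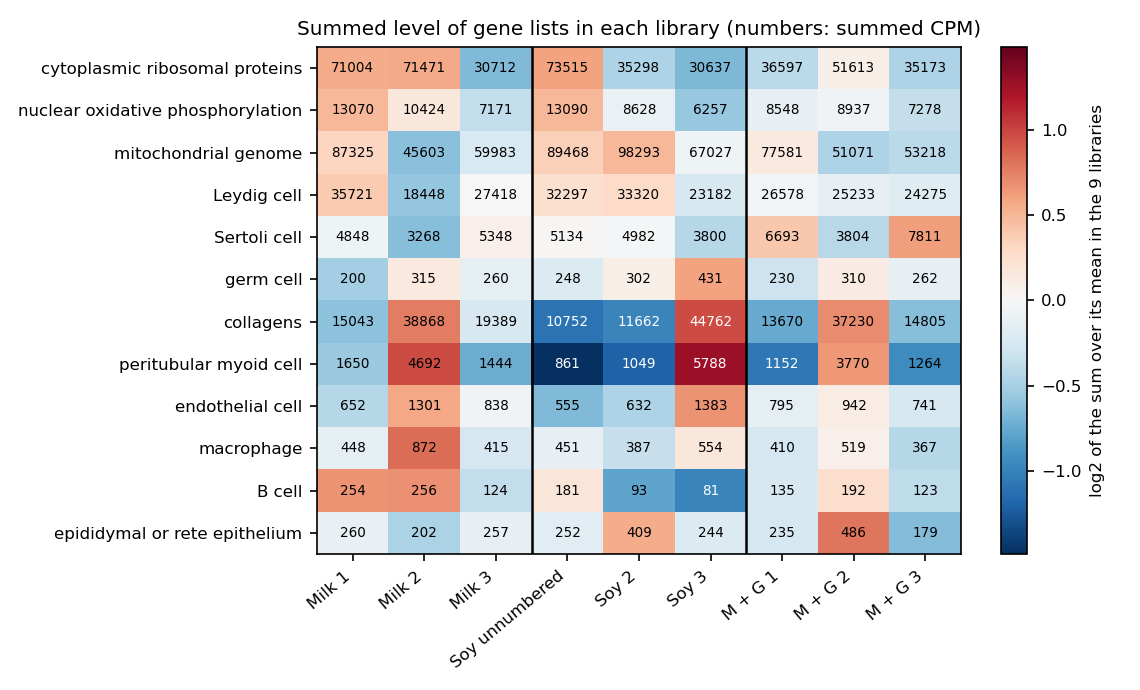
The map gives the summed CPM of 12 gene lists in each of the 9 libraries, coloured by the log2 ratio to the mean of the row, with black lines between Milk, Soy and M + G. Milk 2, Soy 3 and M + G 2 are high in collagens and myoid markers, and Milk 1, Milk 2 and Soy unnumbered in ribosomal proteins, so that the strongest columns cut across the diets.

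Without Milk 2, further list medians changed sign and were −0.08 for sterol biosynthesis, −0.13 for Leydig cells, −0.13 for steroidogenesis, −0.11 for NRF2 targets, −0.08 for FSH, inhibin and activin, and 0.07 for immediate early genes. The thyroid hormone median was 0.35 and that of glycolysis 0.02 without it. The number of lists whose median kept its sign without Milk 2 was 18 of 34.

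Levels in the diets outside the comparison are given for the 8 named genes without overlap and for GLB1L2. KRT14 was at 2.59 to 3.70 CPM in the 2 Sow libraries of the fit and 2.91 to 5.48 CPM in the 3 M + E2 libraries, all above the 3 Milk libraries. SLC5A2 was at 10.7 to 14.9 CPM in Sow and 10.9 to 17.2 CPM in M + E2. LRP2 was at 1.36 to 1.99 CPM in Sow and 2.95 to 3.80 CPM in M + E2. GLB1L2 was at 15.7 to 48.9 CPM in Sow and 16.0 to 31.6 CPM in M + E2. These Sow and M + E2 libraries were likewise all above Milk for SLC5A2, LRP2 and GLB1L2. For LRP2 the log2 fold change of M + E2 against Milk was 1.79 (SE 0.36). EPS8L2 was at 0.862 to 1.14 CPM in Sow and 0.949 to 2.33 CPM in M + E2, both overlapping with Milk. TMPRSS2 was at 0.123 to 0.285 CPM in Sow and 0.127 to 0.211 CPM in M + E2. Among the lower genes, KISS1 was at 9.36 to 10.96 CPM in Sow and 5.96 to 10.5 CPM in M + E2, PNLIPRP2 at 5.67 to 6.26 CPM and 0.581 to 2.11 CPM, and CD207 at 0.123 to 0.427 CPM and 0.291 to 1.77 CPM.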

How the data were processed

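Testis RNA of single piglets was sequenced, and the authors deposited 1 table of raw read counts per gene and library. According to the study's methods and the submitters' processing notes, the authors trimmed the reads and worked in CLC Genomics Workbench 20.01, mapping first to a curated library of pig genes and then the leftover reads to Ensembl pig genome build 11.1. Gene symbols came from the table and, where it gives an Ensembl ID alone, from a gene name table, and 2520 of 15634 tested genes remained without one. Positions came from RefSeq by symbol and are on the same assembly.

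The members (all genes past a filter with a minimum count of 10, edgeR's filterByExpr), the gene lists and the named-gene rule were chosen with earlier results of these data known. Counts were tested with edgeR 4.0.16 (R 4.3.3, limma 3.58.1) in 1 quasi-likelihood fit of 5 diets and 14 libraries with TMM factors. Sow 2 was left out, as in the study. The contrast was the mean of Soy and M + G minus Milk, a call needed an adjusted p of 0.05 or less and a 2-fold change, and SEs came from the F statistic, with 95% intervals. Named genes were those with a symbol, at least 2-fold and without overlap between the 6 and the 3 libraries. Some of the genes discussed in the study, the 20 lowest p values, and the leading genes of lists were also named. DESeq2 1.42.0, the exact test, other filters and scaling, single libraries left out and replicate blocks were alternatives. The scripts were tested on simulated data. Deviations from the group means of same-numbered Milk and M + G libraries correlated at 0.231, 0.492 and 0.413, so these were also fitted as pairs. For Soy and Milk the values were −0.472 and 0.191. Replicate numbers are the only basis of the pairs, and libraries of unlike number were not compared in this way. Depth limits low genes most, and read ratios and floors of 3 reads cover counting error only. Results for some genes are not reported here.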

Additional observations from a re-analysis of the deposited data

Results flagged for a closer look

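Of 32 named genes, 1 was flagged for a library far from the others of its kind. GZMA_2 had 0 reads in Soy 2, the lowest of the 6 isoflavone libraries. Its gap to the next library, divided by the range of the 6 on the log2 scale, was 0.671, above Dixon's 95% critical value for 6 values. Chance flags about 1 in 20 groups, and the value was not used in any call.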

How the results depend on the processing

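The count of 0 genes called for the isoflavone formulas against Milk was the same under 19 of 20 alternatives, with 2 called by DESeq2's Wald test. For Soy against Milk the count was 0 to 1 over fits that left out 1 library (1 without Milk 1), 1 without a filter, 6 with DESeq2 and 5 with the exact test. For M + G against Milk it was 1 without a filter, 2 with DESeq2 and 2 with the exact test. For Soy against M + G it was 0 to 3 over fits without 1 library (2 without Milk 1 or Milk 3, 3 without Milk 2), 2 with all 3 Sow libraries, 3 without a filter, 12 with DESeq2 and 8 with the exact test. The cause of these differences was not tested.

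A replicate block on the number in the 9 libraries gave 0 calls for the formulas together. The pairing of Milk and M + G alone was added after seeing the data, and gave 0 calls for the formulas together, 1 for Soy against Milk (adjusted p = 0.0312, edgeR) and 1 for Soy against M + G (adjusted p = 0.0148, edgeR). It changed no other call. Genes at an unadjusted p below 0.05 numbered 665 with the block, 747 with the added pairing, 191 in a fit of the 9 libraries alone, 195 with the 6 libraries as 1 group, 701 without a filter and 197 with the exact test.

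Of the 32 named genes, 27 kept their direction under every alternative. Log2 fold changes of CYP11A1 ranged from −0.230 to 0.318 over fits without 1 library, of CYP17A1 from −0.0463 to 0.584, of CYP19A1 from −0.101 to 0.507 and of STAR from −0.160 to 0.629, each negative without Milk 2. SMAD6 ranged from −0.449 to 0.520 and was 0.0220 with the block and 0.108 with the added pairing. Of 34 list medians, 11 kept their sign under every alternative, among them epithelial markers, Sertoli cells, macrophages, chemokines, nuclear oxidative phosphorylation and both kinds of ribosomal proteins. Without Milk 2, 18 of 34 kept their sign. The B cell median was 0.11 and that of FSH, inhibin and activin 0.47 without Milk 3, a move larger than the spread between libraries. With 3 libraries per diet, the 95% interval of the median gene reached 0.50 on the log2 scale to either side.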
